A study of Mus musculus with 189 samples.

Results

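Gata6, Sox17 and Pdgfra mark the primitive endoderm, the layer of the inner cell mass (ICM) that faces the blastocyst cavity and later forms the yolk sac. They were chosen by name, as the primitive endoderm genes whose assays passed the quality control, and are 3 of the 156 assays that passed among 192 in all. The assays of Gata4 and Sox7, the other primitive endoderm genes on the chip, were among the 36 that failed. The RefSeq annotation of GRCm38.p6 places Gata6 on chromosome 18 (11052510 to 11085636), Sox17 on chromosome 1 (4490928 to 4497426) and Pdgfra on chromosome 5 (75151322 to 75198206). The positions of the primers are not given in the sources used here.

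Gata6 encodes a zinc finger transcription factor that is present in many blastomeres before the ICM divides into primitive endoderm and epiblast, and opposes Nanog there. Sox17, an HMG box transcription factor, and Pdgfra, a receptor tyrosine kinase for platelet-derived growth factor, are known to follow Gata6 as cells take the primitive endoderm fate. FGF4 from epiblast precursors acts through FGF receptors to favour that fate, whereas Nanog and Sox2 mark the epiblast.

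The study profiled chromatin modifiers through mouse preimplantation development by quantitative PCR of single cells on microfluidic chips. Oocytes came from superovulated F1 (C57BL/6 x DBA/2) females and embryos from such females mated to C57BL6 males, with culture in KSOMaa at low oxygen and no genetic or drug treatment in any group. The samples of the study set are 11 MII oocytes, 14 zygotes, 21 samples from 2-cell, 7 from 3-cell, 12 from 4-cell, 27 from 8-cell, 26 from 16-cell (morula) and 50 from 32-cell (blastocyst) embryos. The 16-cell samples are 20 single cells and 6 small groups from 2 embryos, and the 32-cell samples are 32 single cells and 18 groups from 7 embryos.

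Values are 30 minus the cycle threshold (Ct), relative to the mean of the control genes Hnrnpr, Ssu72 and Ube2e1, so that 1 unit is a 2-fold difference if the PCR doubled in each cycle. A gene counts as detected below a Ct of 30. Where a gene was not detected, its value comes from the control genes alone. It averaged −17.1 in MII oocytes, where their mean Ct was 12.9, and −11.9 in single 32-cell blastomeres, where it was 18.1. Less template was thus measured in the late cells, and a low transcript was harder to detect there. Assays differ in efficiency, so levels are compared between samples of a gene and not between genes. Stages were compared with limma over 58 oocyte or embryo means (blastomeres of an embryo averaged first) and adjusted over the 156 genes. Nothing in the labels says how many females the embryos came from, so the p-values measure the spread between these embryos.

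Gata6 was detected from the oocyte onwards and rose between the 4- and the 8-cell stage. It was detected in 11 of 11 MII oocytes, where its level ran from −3.32 through a median of −3.15 to −2.11, and in 14 of 14 zygotes, where it ran from −4.40 through −3.09 to −2.51. The oocyte and zygote values overlapped, and their means of −2.99 ± 0.36 (SD, n = 11) and −3.21 ± 0.51 (SD, n = 14) differed by −0.22 ± 0.68 (SE, limma adjusted p = 0.91). None of the 3 genes passed the threshold of 0.05 in that comparison, where 1.92% of the 156 genes did.

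At the 2-cell stage Gata6 differed between samples whose titles carry the letter A and the others. In the 3 whole 2-cell embryos its level was −2.99, −3.16 and −3.45, within the range of the zygotes. In the 18 A samples, which are blastomeres by their labels, it was detected in 13, and its level ran from −14.32 (not detected) through a median of −5.64 to −2.69. The titles of 3 of the 18 give an embryo and no blastomere number, as those of whole embryos do, and these had Gata6 at −6.02, −6.76 and −13.74 (not detected). What the letter stands for is not given in the sources used here. Every A sample is labelled a blastomere and every other 2-cell sample an embryo, so the letter and the label cannot be told apart. Over all 8 units of the 2-cell stage, 1 of them a set of 11 blastomeres without an embryo number, the mean differed from that of zygotes by −3.34 ± 0.75 (SE, limma adjusted p = 8.3e-05). Without the A samples the difference was 0.0095 (limma adjusted p = 0.99), so the fall at the 2-cell stage rests on those samples. They had a control Ct of 16.8 on average, against 14.5 in the 3 whole 2-cell embryos and 16.1 in the 3 A samples titled like embryos, and the part of template amount in the difference was not tested. The rise from the 2- to the 4-cell stage, 3.97 ± 0.91 (SE, limma adjusted p = 8.1e-04), likewise became 0.62 (limma adjusted p = 0.70) without them. Between zygotes and the 2-cell stage 68.6% of genes passed the threshold, and between the 2- and the 4-cell stage 32.7%.

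At the 4-cell stage Gata6 was detected in 12 of 12 samples and its embryo means ran from −3.45 to −1.72. At the 8-cell stage it was detected in 27 of 27 samples and the embryo means ran from 0.44 to 1.53, so that every 8-cell embryo lay above every 4-cell embryo. The difference between the means of −2.58 ± 0.66 (SD, n = 6) and 1.12 ± 0.39 (SD, n = 7) was 3.71 ± 0.94 (SE, limma adjusted p = 7.9e-04). Whole embryos alone gave 3.55 (limma adjusted p = 1.2e-09), with 4-cell values of −3.45, −2.47 and −1.97 and 8-cell values of 0.44, 0.86 and 1.45, in a fit that called 39.7% of genes. Gata6 and Pdgfra were among the 21 genes, 13.5% of those tested, that rose at this step, and 49.4% changed in either direction.

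Relative to the 3 control genes, the highest embryo means of Gata6 were those of the 16-cell stage. It was detected in 26 of 26 samples of the 16-cell stage, with embryo means of 2.64 and 2.65, and in 49 of 50 samples of the 32-cell stage, with embryo means from 0.47 through 2.25 to 2.52. Both 16-cell embryos lay above all 7 of the 8-cell and all 7 of the 32-cell stage, but neither step passed the threshold on these units, with 1.52 ± 1.35 (SE, limma adjusted p = 0.49) and −0.82 ± 1.35 (SE, limma adjusted p = 0.74), where 28.2% and 10.9% of genes did. In the deposited normalized values the first step turned to −0.36 (limma adjusted p = 0.86) and the second was −1.98 (limma adjusted p = 0.28), so the order of the 8-, 16- and 32-cell stages depends on the control genes. The 2 embryos of the 16-cell stage limit this comparison. So does the SE, which takes 1 estimate of spread per gene from all stages. For Gata6 the SDs of embryo means were 3.61 and 4.65 at the 2- and 3-cell stages. They were 0.39, 0.0036 and 0.80 at the 8-, 16- and 32-cell stages. In whole embryos, which were 3 per stage and stand outside the study set at these stages, Gata6 was 2.52, 2.83 and 2.86 at the 16-cell stage and 0.77, 0.92 and 1.37 at the 32-cell stage. Among whole embryos the 16-cell values lay above all 8-cell and all 32-cell values, while the 8- and 32-cell values overlapped, and both steps passed the threshold (1.82 and −1.72, limma adjusted p = 2.1e-04 and 2.9e-04, with 31.4% and 41% of genes called in these fits).

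From MII oocytes to 16- and 32-cell embryos Gata6 rose by 5.00 ± 0.76 (SE, limma adjusted p = 4.4e-08), without overlap. Sox17 rose by 8.44 ± 1.18 (SE, limma adjusted p = 6.2e-09) and Pdgfra by 7.43 ± 1.37 (SE, limma adjusted p = 2.5e-06) over the same interval, so that 3 of 3 were among the 37.8% of genes that rose. Sox17 was not detected in 10 of the 11 oocytes, and with values below −10 set to −10 its rise was 3.60 (limma adjusted p = 3.8e-12). The size for Gata6 depends on the control genes. It was 1.44 in the deposited normalized values (limma adjusted p = 0.078), which are relative to Gapdh, Hspa8 and Lmnb1, and 0.70 without normalization (limma adjusted p = 0.51). These scalings moved the median of all genes too, from −0.35 to −3.91 and −4.65, and the difference of Gata6 from that median, which such scalings cannot change, was 5.35.

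**Figure D1:**
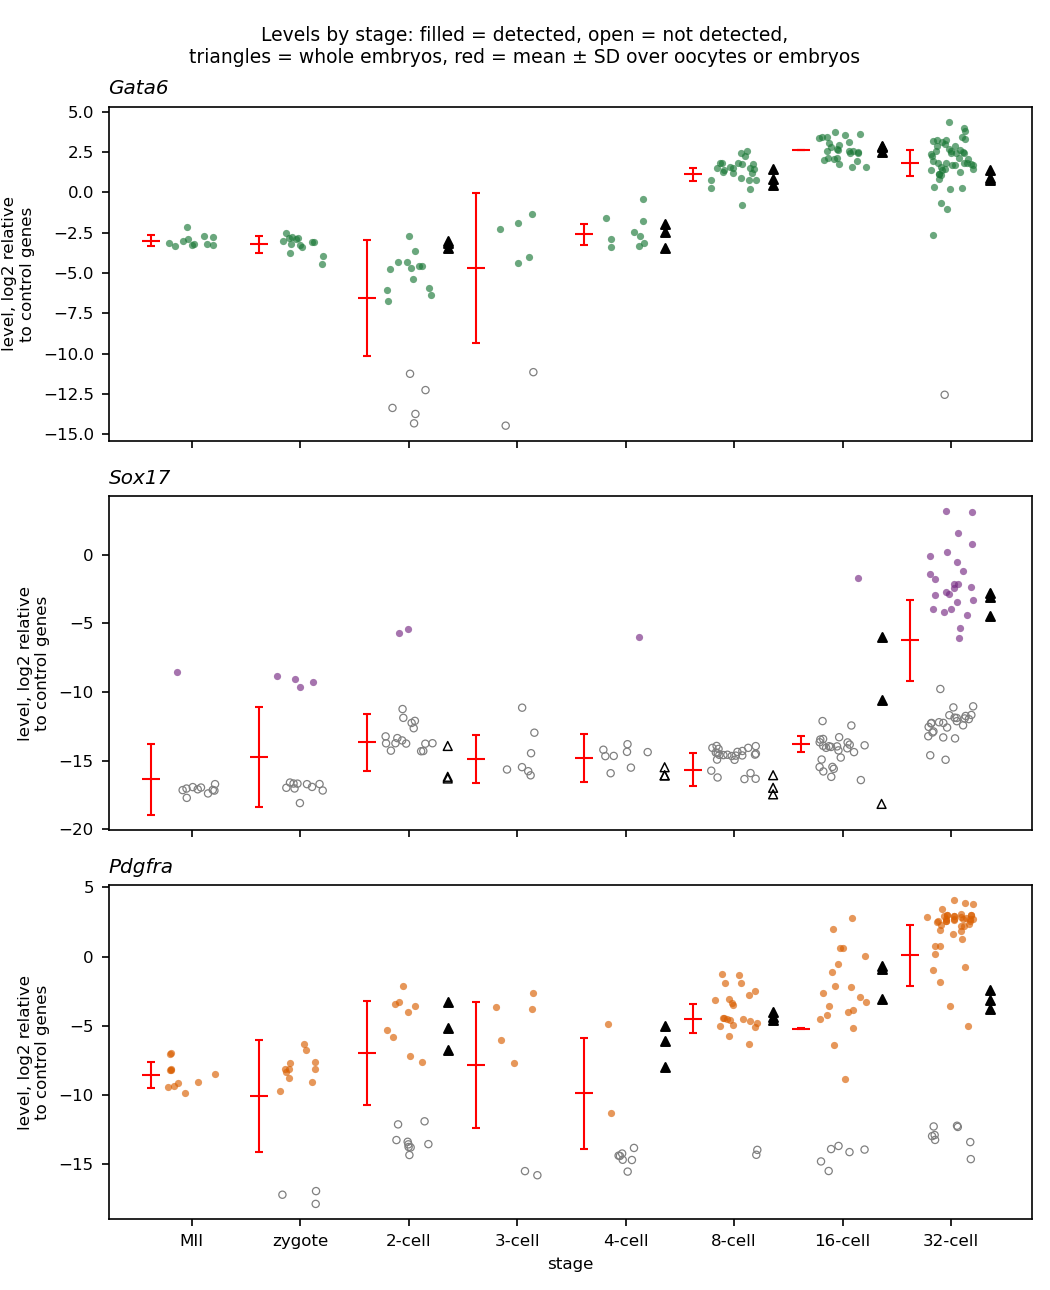
Level of Gata6, Sox17 and Pdgfra (y axis, log2 relative to the 3 control genes) in each sample by stage (x axis), with detected samples filled, undetected samples open, whole embryos as triangles and the mean ± SD over oocytes or embryos in red. Gata6 was at −2.58 on average at the 4-cell stage and 1.12 at the 8-cell stage, detected Sox17 values gather at the 32-cell stage, and most Pdgfra values of the 32-cell stage lie above those of its whole embryos.

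Sox17 was the late gene of the 3. Before the 32-cell stage a signal was found in 1 of 11 MII oocytes (−8.57), in 4 of 14 zygotes (−9.62 to −8.81), in 2 of 21 samples of the 2-cell stage (−5.72 and −5.39), in 0 of 7 of the 3-cell stage, in 1 of 12 of the 4-cell stage (−6.01) and in 0 of 27 of the 8-cell stage. At the 16-cell stage 1 of 26 samples had a signal, the single blastomere mor.5_b6 at −1.67. These early signals are scattered over few samples. The detected values of the 32-cell stage ran from −6.05 through a median of −2.34 to 3.17, above those of the oocyte and zygotes and overlapping those of the 2-, 4- and 16-cell samples.

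At the 32-cell stage Sox17 was detected in 25 of 50 samples and in at least 1 sample of each of the 7 embryos. The embryos differed in how many of their samples carried it. Embryo blast.01 had a signal in 1 of 12 samples, blast.08 in 5 of 10, blast.09 in 6 of 9, blast.10 in 3 of 5, blast.11 in 2 of 3, blast.12 in 5 of 5 and blast.13 in 3 of 6. Most embryos thus held cells with and without a signal. The embryo means were −14.21 and −13.40 at the 16-cell stage and ran from −11.95 to −2.69 at the 32-cell stage, without overlap. The difference of 7.56 ± 2.10 (SE, limma adjusted p = 0.011) made Sox17 one of the 14 genes, 8.97% of those tested, that rose at this step. No other step between neighbouring stages passed the threshold for Sox17, and the 7 other stages, ordered by their means, each lay within the pooled SD of the next. The undetected value itself is higher at the 32-cell stage, and with every value below −10 set to −10 the difference was 4.38 (limma adjusted p = 5.3e-06). The call was lost when 16-cell embryo mor.4 (7.16, limma adjusted p = 0.19) or mor.5 (7.97, limma adjusted p = 0.074) was left out.

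The whole embryos show the same order for Sox17. It was not detected in any of 3 whole 8-cell embryos, was detected in 2 of 3 whole 16-cell embryos (−10.62 and −5.96) and in 3 of 3 whole 32-cell embryos (−4.45, −3.10 and −2.78). The single isolated ICM sample had a level of −3.94 and the single isolated trophectoderm sample no signal. The ICM sample was not free of trophectoderm transcripts. Its mean over 11 trophectoderm genes, all 11 detected, was −0.98, against −1.58 with 10 detected in the trophectoderm sample. Over 12 ICM and epiblast genes the means were 0.059 and −2.33.

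**Figure D2:**
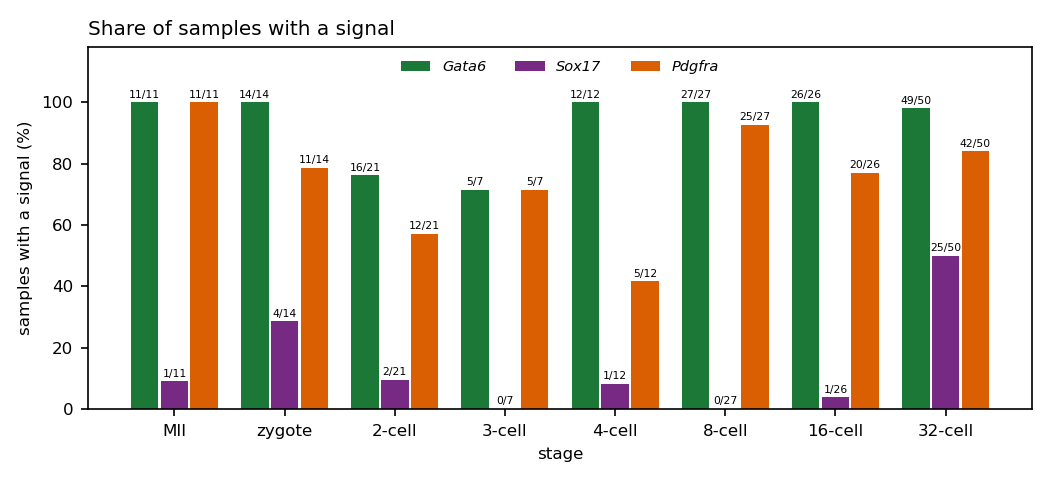
Percent of samples (y axis) with a signal of Gata6, Sox17 or Pdgfra at each stage (x axis), with the number of samples above each bar. The last 2 stages read 26 of 26 and 49 of 50 samples for Gata6, 1 of 26 and 25 of 50 for Sox17, and 20 of 26 and 42 of 50 for Pdgfra.

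Pdgfra was present in oocytes at a low level, was detected unevenly in the cleavage stages and was highest in cells of the 32-cell stage. It was detected in 11 of 11 MII oocytes (−9.85 through −8.46 to −6.97) and in 11 of 14 zygotes, where the detected values ran from −9.69 through −8.12 to −6.27. At the 2-cell stage it was detected in 12 of 21 samples and at the 3-cell stage in 5 of 7. At the 4-cell stage it was detected in 5 of 12, namely in 3 of 3 whole embryos (−7.99, −6.10 and −5.01) and in 2 of 9 single blastomeres (−11.32 and −4.84). The gene was thus found in each whole 4-cell embryo and in few of the single cells.

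The step from zygotes to the 2-cell stage gave 3.09 ± 1.35 (SE, limma adjusted p = 0.038) for Pdgfra, a call lost in 5 of the 16 alternative settings. From the 4- to the 8-cell stage Pdgfra rose by 5.39 ± 1.69 (SE, limma adjusted p = 0.0070), from −9.86 ± 4.02 (SD, n = 6) to −4.47 ± 1.01 (SD, n = 7), with overlapping embryos. It was detected in 25 of 27 samples of the 8-cell stage. Among whole embryos, where every 4-cell embryo had a signal, the same step was 2.06 (limma adjusted p = 0.53), from the values above to −4.59, −4.33 and −4.02, and whole 8-cell embryos lay above all whole 4-cell embryos.

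For Pdgfra the last step had opposite directions in blastomeres and in whole embryos. Over the embryo means of blastomeres it was 5.28 ± 2.44 (SE) higher at the 32- than at the 16-cell stage, without overlap (−5.22 and −5.16 against −3.05 to 2.23), but not past the threshold (limma adjusted p = 0.19). With values below −10 set to −10 it was past it (4.68, limma adjusted p = 0.0055), whereas with the whole embryos added to both stages the difference was 2.14 (limma adjusted p = 0.37). Among whole embryos it was −3.08, −0.93 and −0.67 at the 16-cell and −3.80, −3.17 and −2.43 at the 32-cell stage, a difference of −1.57 (limma adjusted p = 0.62). Of the 32 single 32-cell blastomeres, 26 lay above all 3 whole 32-cell embryos for Pdgfra, 23 for Gata6, 24 for Nanog and 23 for Sox2. For Sox17, 7 cells lay above and 20 below all whole embryos. The 20 include all 19 cells without a Sox17 signal, whose values come from the control genes alone. The isolated ICM sample, which also held trophectoderm transcripts, had a level of 0.95 for Pdgfra and the isolated trophectoderm sample −2.63.

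By their median, the single blastomeres of the 32-cell stage held less trophectoderm signal than whole embryos. The mean over a list of 11 trophectoderm genes, among them Cdx2, Gata3 and Krt8, had a median of −6.61 in single 32-cell blastomeres (−10.13 to −0.35), and was −1.63, −0.76 and −0.72 in whole 32-cell embryos. In single 16-cell blastomeres it was −4.16 (−7.43 to −2.38), and in whole 16-cell embryos −2.74, −1.74 and −1.34. Over 12 ICM and epiblast genes the single cells had medians of −2.57 and −0.12 at the 16- and 32-cell stage. Whole embryos had −0.82, −0.67 and −0.50 at the 16-cell stage and −2.14, −1.63 and −1.26 at the 32-cell stage. Single cells thus also lay below whole embryos at the 16-cell stage, in both lists. Between the 16- and 32-cell stage, where 8.97% of all genes rose and 1.92% fell, 0 of the 11 genes rose and 2 fell, namely Cdx2, which fell by 5.99, and Gata3, which fell by 7.15 (limma adjusted p = 0.019 and 0.0016). Of 12 ICM and epiblast genes 3 rose, namely Sox2 by 8.32, Klf2 by 2.63 and Pecam1 by 2.80 (limma adjusted p = 4.4e-05, 0.019 and 0.0081), and Dppa3 fell by 1.39 (limma adjusted p = 1.7e-04). The medians of the differences were −1.83 for the trophectoderm list and 0.97 for the ICM list, against 0.16 over all genes. These differences hold no whole embryos. Among whole embryos Gata3 was instead higher at the 32-cell stage (2.56 to 2.77 against 1.33 to 2.08) and Pecam1 lower (−4.34 to −3.32 against −2.87 to −1.43). Cdx2, Sox2 and Klf2 overlapped between the stages there, and Dppa3 was lower at the 32-cell stage, as in the blastomeres. The part of the kind of cell sampled in the differences of Gata6, Sox17 and Pdgfra was not tested.

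Genes of the FGF pathway were described through 4 assays, the ligand Fgf4, the receptors Fgfr2 and Fgfr3 and the kinase Mapk3. From MII oocytes to 16- and 32-cell embryos Fgf4 and Fgfr3 rose by 9.15 and 8.09, and Mapk3 fell by 5.91 (limma adjusted p = 9.7e-09, 4.6e-07 and 1.4e-24). Fgfr2 had a difference of −1.24 (limma adjusted p = 0.068). Over that interval 59 of the 156 genes rose and 73 fell. Fgf4 was detected in 11 of 26 samples of the 16-cell and 23 of 50 of the 32-cell stage, and Fgfr3 in 25 of 26 and 21 of 50. The sizes of their rises thus include undetected values, which are themselves higher in late cells (−12.5 on average at the 32-cell stage against −17.1 in oocytes). None of the 4 passed the threshold from the 8- to the 16-cell or from the 16- to the 32-cell stage. Of all genes 28.2% and 10.9% did so at these steps.

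Among single 16-cell blastomeres Gata6 was detected together with Nanog in 20 of 20 cells. Its level ran from 1.56 through 2.56 to 3.73 and that of Nanog from −4.13 through 1.48 to 2.43. The cells with more Gata6 had more Nanog on the whole, with a Spearman rho of 0.56 over the 20 cells, of 0.30 over the 10 cells of embryo mor.4 and of 0.79 over the 10 of mor.5. The median rho of Gata6 with all genes was 0.18. Every rho here is a description across cells that share 2 embryos, or 7 at the 32-cell stage, and have the control genes in each value.

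Among single 32-cell blastomeres Gata6 and Nanog were again detected together in 31 of 32 cells. The remaining cell, blast.08_b14, had no Gata6 signal and a Nanog level of 2.10. Gata6 ran from −2.66 through 1.83 to 4.36 where it was detected, and Nanog from −2.95 through 0.96 to 3.21. The rho was −0.20 over the 32 cells, −0.32 and −0.19 in the embryos with 10 and 8 single cells, and 0.60 and −0.40 in the pair of embryos with 4. The sign of the rho thus differed from that of the 16-cell stage, and the difference was not tested.

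Sox17 was found in some 32-cell blastomeres and not in others. It was detected in 13 of 32 single cells, and each of these 13 also had a signal of Gata6 and Pdgfra, 11 of them also of Sox2. No cell had Sox17 alone. Over all 32 single cells Gata6 was detected in 31, Pdgfra in 28 and Sox2 in 27, so these counts are near the shares among all cells. The Pdgfra level had a median of 2.72 in the 13 cells with Sox17 and 0.75 in the 19 without, and that of Gata6 a median of 2.39 against 1.59. Nanog was close in both, with medians of 0.90 and 0.98, and Sox2 had −1.32 against 0.15. The ranges overlapped for each of these genes. Sox17 had a rho of 0.62 with Pdgfra, 0.42 with Gata6, −0.099 with Nanog and 0.0092 with Sox2, and its median rho over all genes was 0.13. The values of the 19 cells without Sox17 come from the control genes alone, and the pooled rho mixes embryos that differ in Sox17. Within the embryos with 10, 8, 4 and 4 single cells the rho of Sox17 was 0.60, 0.64, −0.20 and 0 with Pdgfra, 0.38, 0.26, −0.40 and 0.40 with Nanog, and 0.32, 0.24, −1 and −0.80 with Sox2. The signs thus varied between embryos. The 13 cells came from all 7 embryos, 4 of them from the 4 single cells of embryo blast.12. The cell blast.08_b9 was among them with a control Ct of 15.4, where the other 31 lay between 17.0 and 20.2, and without it 12 of 31 cells had all 3 genes.

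The cell with the highest Sox17 level, blast.13_b2 at 3.17, had Gata6 at 3.41, Pdgfra at 3.83, Nanog at −2.95, the lowest of the stage, and Sox2 at −3.73. Its sister blast.13_b1 had no Sox17 signal, with Gata6 at 2.07, Pdgfra at −1.86, Nanog at 1.51 and Sox2 at 0.34. In this pair, picked after its values were seen, the sister with Sox17 had the lower Nanog and Sox2. In blast.01_b8 Gata6 and Nanog were instead both the highest of the single cells of the stage, at 4.36 and 3.21, with Sox17 at −3.95. The single 16-cell blastomere with Sox17, mor.5_b6, had the highest Gata6 (3.73) and Pdgfra (2.78) of its stage, with Nanog at 2.39 and Sox2 at −1.14.

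**Figure D3:**
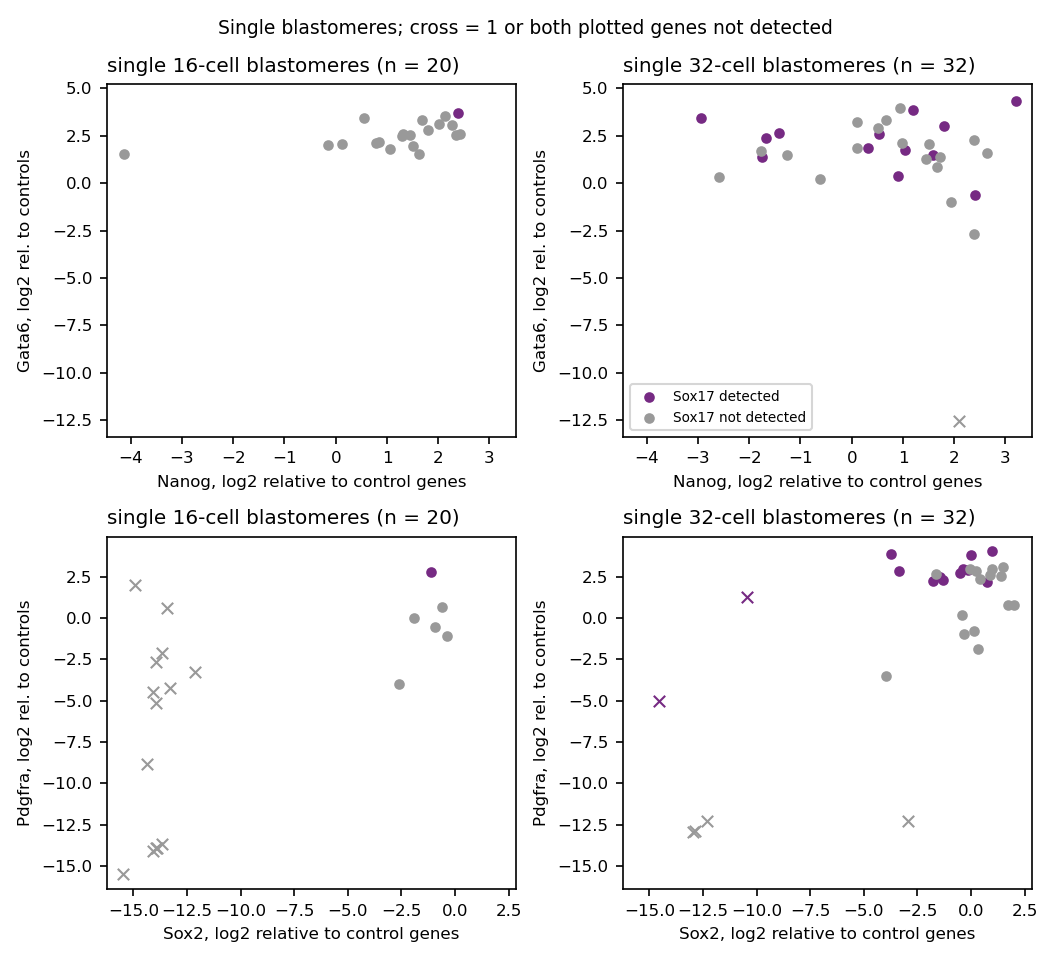
Gata6 against Nanog (upper panels) and Pdgfra against Sox2 (lower panels) in single 16-cell blastomeres (left, n = 20) and single 32-cell blastomeres (right, n = 32), on both axes as log2 relative to the control genes, with purple for cells in which Sox17 was detected and a cross where 1 or both plotted genes were not. Purple marks 1 cell in the left and 13 in the right panels, and both Pdgfra and Sox2 are present in 6 cells on the left and 26 on the right.

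Nearly every cell with a Sox2 signal also had a Pdgfra signal. At the 16-cell stage 6 of 20 single cells had both Pdgfra and Sox2, 9 had Pdgfra alone, 0 had Sox2 alone and 5 had neither. At the 32-cell stage the counts were 26, 2, 1 and 3 of 32. Pdgfra was itself detected in 15 of 20 and 28 of 32 of all single cells, so a large overlap does not set the cells with Sox2 apart. The rho of Pdgfra with Sox2 was 0.57 at the 16-cell stage (0.85 in mor.4 and 0.45 in mor.5), where 14 of the 20 cells had no Sox2 signal, and 0.43 at the 32-cell stage. Both rest on cells without a signal. At the 32-cell stage it was 0.047 over the 26 cells with both genes and 0.13 without embryo blast.01. With Nanog the rho of Pdgfra was 0.074 and 0.12 over all cells of the stages, and 0.33, 0.71, 0 and 0.80 within the embryos of the 32-cell stage with 10, 8, 4 and 4 single cells. With Gata6 it was 0.40 at the 16-cell stage (0.067 in mor.4 and 0.67 in mor.5) and 0.52 at the 32-cell stage, where the same embryos had 0.042, 0.43, 0.80 and −0.20.

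Against the lists, Pdgfra followed ICM genes and opposed trophectoderm genes at both stages. Its median rho over the 12 ICM and epiblast genes was 0.61 at the 16-cell stage and 0.40 at the 32-cell stage, where 12 and 11 of the 12 were above 0. Over the 11 trophectoderm genes it was −0.71 and −0.38, with 3 and 1 of the 11 above 0, and over all genes 0.21 and 0.17. Esrrb (0.72 and 0.70), Tet1 (0.72 and 0.54) and Pecam1 (0.68 and 0.66) were among the highest ICM genes, and Dppa1 (−0.84), Gata3 (−0.81) and Cdx2 (−0.78) the lowest trophectoderm genes at the 16-cell stage. The study chose Pdgfra as a core ICM gene on these samples, so this is not independent of that choice.

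Gata6 followed the ICM list at the 16-cell stage, with a median rho of 0.46 and 12 of 12 above 0, and less so at the 32-cell stage, with 0.21 and 8 of 12. Its rho with the T-box factor Tbx3 was 0.84 and with Esrrb 0.67 at the 32-cell stage, whereas with Klf2, Zfp42 and Nanog it lay between −0.20 and −0.11. Sox17 had medians of 0.17 with the ICM list and −0.089 with the trophectoderm list, against 0.13 with all genes. Its rho was 0.59 with Pecam1 and with Pou5f1 and −0.43 with Zfp42. The receptor Fgfr2 had a rho of −0.57 with Pdgfra and −0.36 with Gata6 at the 16-cell stage, and of −0.088 and 0.24 at the 32-cell stage. The other reported FGF genes, Fgf4, Fgfr3 and Mapk3, went the other way at the 16-cell stage. Their rho was 0.44, 0.47 and 0.43 with Pdgfra and 0.074, 0.33 and 0.40 with Gata6. At the 32-cell stage it was 0.014, −0.13 and 0.17 with Pdgfra and −0.14, −0.024 and −0.097 with Gata6.

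**Figure D4:**
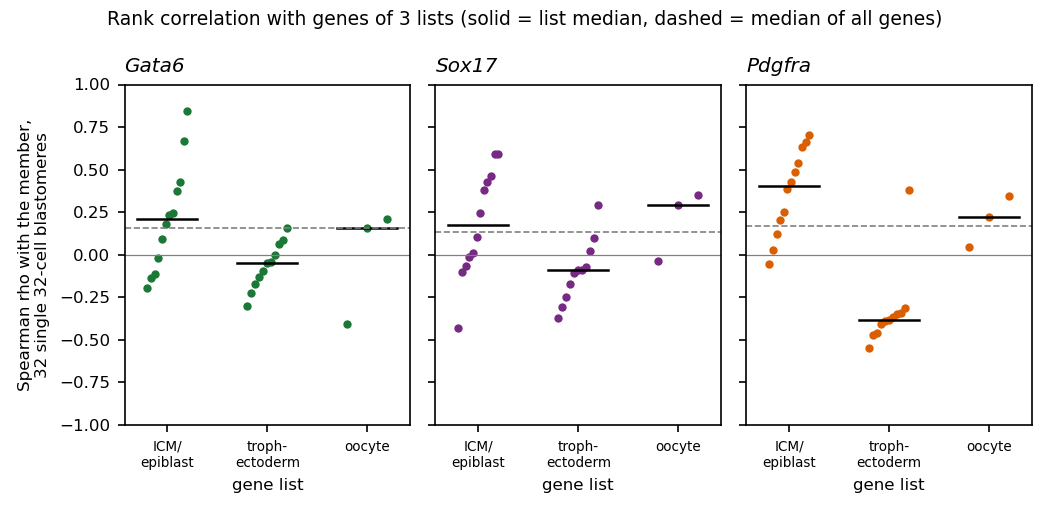
Spearman rho (y axis) of Gata6, Sox17 and Pdgfra with each gene of 3 lists (x axis) over 32 single 32-cell blastomeres, with the list median as a solid line and the median over all genes dashed. For Pdgfra the ICM median was 0.40 and the trophectoderm median −0.38, and for Gata6 and Sox17 these medians were 0.21 and −0.047, and 0.17 and −0.089.

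The genes most like each of the 3 were found over the 52 single late blastomeres after subtracting the mean of each embryo. For Gata6 they were Tbx3 (rho 0.59), Kdm4a (0.49), DEK (0.49), Jmjd6 (0.48) and Smyd4 (0.44), and the lowest were Fgf4 (−0.25), Lats2 (−0.19) and Kdm1b (−0.16). For Sox17 they were Bmi1 (0.45), DEK (0.43), Carm1 (0.36), Kdm2a (0.35) and Kdm4c (0.34), and the lowest were the Hippo pathway genes Nf2 (−0.44) and Lats2 (−0.38) and then Fgf4 (−0.27). For Pdgfra they were Esrrb (0.79), Ezh1 (0.78), Tet1 (0.76), Pecam1 (0.75) and Satb1 (0.68), and the lowest were Dppa1 (−0.69), Id2 (−0.68) and Tspan8 (−0.67). Sox17 was detected in only 14 of these cells, so its ranks rest on few values. Over the 58 oocyte and embryo means of all stages the nearest genes were Ring1 (0.72), Lats2 (0.63) and Lrpap1 (0.58) for Gata6, Rbp2 (0.70), Smyd1 (0.67) and Krt19 (0.64) for Sox17, and Zfp42 (0.71), Nanog (0.69) and Eif1a (0.68) for Pdgfra. The nearest genes across stages were thus others than among sister cells for each of the 3, and Lats2 was among the nearest to Gata6 across stages and among the lowest in sister cells.

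Sister blastomeres of an embryo were also compared by their spread. The SD of Sox17 among sisters ran from 0.29 to 0.91 in 4 embryos of the 8-cell stage, where the gene was detected nowhere and the spread is that of the control genes, and from 1.22 to 10.7 in 7 embryos of the 32-cell stage. The means of 0.68 and 5.59 differed by 4.92 (exact permutation test, two-sided, p = 0.015, adjusted p = 0.29), without overlap. The highest SDs, 6.97 in blast.09, 8.53 in blast.11 and 10.7 in blast.13, each rest on 2 single cells, 1 with a signal and 1 without. In the embryos with 10, 8, 4 and 4 single cells the SD was 2.69, 4.99, 4.11 and 1.22. For Gata6 the means were 0.86 and 1.74 (exact permutation p = 0.40, adjusted p = 0.63), and for Pdgfra 2.75 and 3.18 (exact permutation p = 0.76, adjusted p = 0.86), with overlap in both. No gene passed after adjustment (0% called) and 12.2% had an SD larger at the 32-cell stage at an unadjusted exact p under 0.05. The 330 arrangements of 4 and 7 embryos allow no p below 0.0030.

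**Figure D5:**
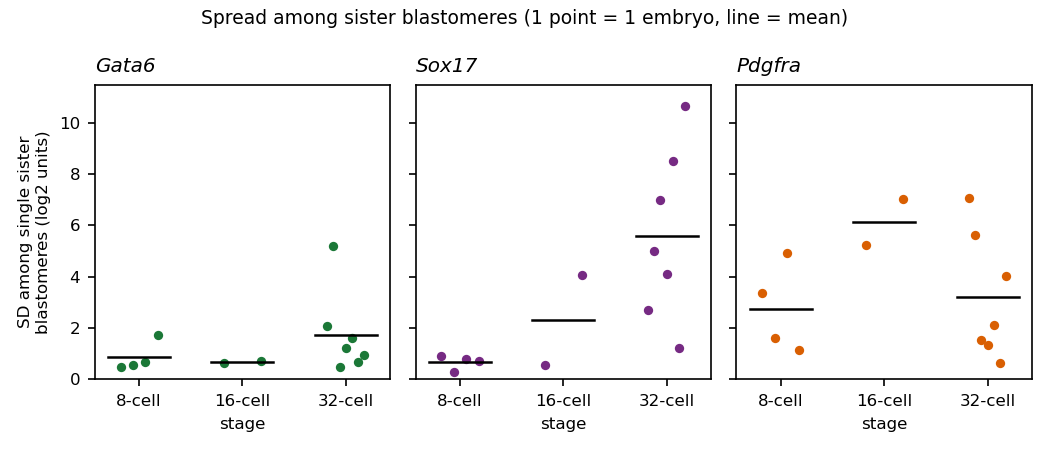
SD among single sister blastomeres (y axis, log2 units) in each embryo with 2 or more of them, by stage (x axis), with a line at the mean. For Sox17 the 8-cell embryos lie between 0.29 and 0.91 and the 32-cell embryos between 1.22 and 10.7, whereas Gata6 and Pdgfra overlap between the stages.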

How the data were processed

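The authors deposited a table of Ct values (a score of PCR cycles from the BioMark software, undetected genes at 30) of 192 assays in 189 samples. A second deposited table holds normalized log2 values, found here to be relative to Gapdh, Hspa8 and Lmnb1. Cells had been put directly into the reverse transcription and preamplification mix, and the authors removed assays without specific signal (36). The main log2 values used here were computed from the deposited Ct relative to Hnrnpr, Ssu72 and Ube2e1, as the methods state. Of 36288 values, 6 lay above 30 and were kept. qPCR gives no read depth, so the control Ct describes the template.

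The study set of samples and 156 genes were used. The 6 whole 16- and 32-cell embryos, the isolated ICM and trophectoderm and the ESC RNA were kept apart, and 3 samples left out by the study were used only in an alternative. Stages were taken from the labels and embryos from the titles. Stages were compared with limma 3.58.1 (R 4.3.3, lmFit and eBayes, all stages in the fit, two-sided, Benjamini-Hochberg over 156 genes), and tested on simulated data first. SDs of sisters were compared by exact permutation, and rho is Spearman's (Python 3.11.15, numpy 2.4.6, pandas 2.3.3, scipy 1.17.1). The members, lists and tests were chosen with earlier results of these data known. Named genes are the 3 genes, Nanog, Sox2, genes of the lists (1 gene of the FGF list is not reported here), and per gene the 5 most and 3 least alike among sister cells and the 3 most alike across stages. Fits with whole embryos only, without the A samples and with single cells only, and rho over cells with both genes detected or without the cell of lowest control Ct, were chosen after seeing the data.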

Additional observations from a re-analysis of the deposited data

Results flagged for a closer look

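Of 45 groups of 4 to 10 values examined for Gata6, Sox17 and Pdgfra, 8 held a value whose distance to its nearest neighbour was a large share of the range of the group (Dixon's criterion). Chance alone gives about 5% of groups if the values are normally distributed. Groups that mix detected and undetected values are not, since 1 cell without a signal, or 1 with it, lies far from the others. The number of flags is thus not read as an excess over 5%. No explanation was tested. In 3 of the 8, a cell lacked a gene that its sisters had. Gata6 was at −12.55, not detected, in blast.08_b14, where the other 7 single cells of the embryo lay between −0.63 and 3.25. Pdgfra was not detected in 8c.e4_b1 (−14.30) and 8c.e6_b1 (−13.95), while their sisters lay between −6.34 and −4.52 and between −4.59 and −1.93.

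In 3 others Sox17 was detected in a single sample of an embryo or stage. It was at −3.95 in blast.01_b8, at −1.67 in the 16-cell blastomere mor.5_b6, and the mean of the 4-cell embryo 4c.e5 was −11.40, since 1 of its 3 blastomeres had a signal. The remaining 2 are SDs of Gata6 among sisters, of 1.74 in the 8-cell embryo 8c.e7 (0.49 to 0.68 in the other 3) and of 5.18 in the 32-cell embryo blast.08 (0.48 to 2.07 in the other 6). The second holds the cell without Gata6 named above.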

How the results depend on the processing

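Of 336 stage differences of the 3 genes under alternative settings, 304 kept their direction and their side of the threshold. Some settings leave the samples of a step unchanged, so its difference could not move. Leaving out a 16-cell embryo, for example, does not touch the steps before that stage. The count thus overstates how stable the differences are. Values are log2 differences. With whole embryos only, or without the A samples, the same 3 whole embryos remain at the 2-cell stage. Both settings thus give the same zygote to 2-cell difference, 0.0095 for Gata6 and −0.74 for Sox17, and are not 2 separate checks. The 2- to 4-cell difference of Gata6 was 0.57 with whole embryos only and 0.62 without the A samples. Whole embryos only also gave 2.06 for Pdgfra from the 4- to the 8-cell stage, 1.82 for Gata6 and 2.75 for Pdgfra from the 8- to the 16-cell stage, and −1.72 and −1.57 for them from the 16- to the 32-cell stage. Without the A samples Sox17 had 0.69 from the 2- to the 4-cell stage. No normalization gave −1.94 and 0.17 for Sox17 at the 2 steps from zygotes to the 4-cell stage, 0.087 for Pdgfra from zygotes to the 2-cell stage, and 0.70 for Gata6 from oocytes to late embryos. The deposited table gave 2.64 for Pdgfra from zygotes to the 2-cell stage, −0.36 and −0.0074 for Gata6 and Sox17 from the 8- to the 16-cell stage, and 1.44 for Gata6 from oocytes to late embryos. A floor at −10 gave 0.051, 0.080 and 4.68 for Pdgfra from oocytes to zygotes, from the 8- to the 16-cell and from the 16- to the 32-cell stage. For Pdgfra from zygotes to the 2-cell stage, the controls without Ube2e1 gave 2.58, every sample as a replicate with the embryo as a random block 2.22 and single cells only 2.66. Every sample as a replicate also gave 4.95 for Pdgfra from the 16- to the 32-cell stage, and whole late embryos added 1.46 from the 8- to the 16-cell stage and 2.14 from the 16- to the 32-cell stage. Without 1 of the 2 embryos of the 16-cell stage, where the lone embryo is assumed to vary like the other groups, Sox17 lost its call with 7.16 to 7.97. The causes of these changes were not tested.

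Embryo numbers in the titles do not pair the samples (median correlation of deviations 0.0070 over 112 pairs of equal number). With the number as a replicate block the 16- to 32-cell difference of Sox17 was 6.83 (limma adjusted p = 0.12), the 8- to 16-cell and 16- to 32-cell differences of Pdgfra 0.74 and 0.92, and 8 genes were called from the 16- to the 32-cell stage.

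The number of genes called, 3 of 156 from oocytes to zygotes, was 6 without Hnrnpr, 5 with median normalization, 0 without normalization and with the left-out samples, 14 with whole embryos only and 12 without the A samples. The 51 from the 2- to the 4-cell stage became 2 with whole embryos, 6 without the A samples and 32 with single cells, and the 77 from the 4- to the 8-cell stage 42 without normalization. The 44 from the 8- to the 16-cell stage became 16 without normalization, 79 in the deposited table and 18 to 19 without 1 embryo of the 16-cell stage. The 17 from the 16- to the 32-cell stage became 27 without Ssu72, 26 with median normalization, 52 without normalization, 43 in the deposited table and with whole embryos added, 49 with every sample as a replicate, 64 with whole embryos only and 6 to 10 without 1 embryo of the 16-cell stage.

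Of 220 rho values under alternatives, 212 moved by less than the SD over embryos. That SD is a wide measure, so the count says little about stability. It rests on 2 embryos at the 16-cell stage and on those with 10, 8, 4 and 4 single cells at the 32-cell stage. For Sox17 with Sox2 these last had 0.32, 0.24, −1 and −0.80. At the 16-cell stage Gata6 with Sox2 was 0.071 with groups of cells added, Pdgfra with Nanog was −0.17 with median normalization, 0.25 as Pearson's r and 0.27 over cells with both genes, and Pdgfra with Sox2 was 0.45 to 0.85 without 1 embryo. At the 32-cell stage Pdgfra with Sox2 was 0.73 as Pearson's r, 0.047 over cells with both genes and 0.13 (without blast.01) to 0.53 without 1 embryo. The SD difference of Pdgfra was −0.11 (without 8c.e7) to 1.16 without 1 embryo of the 8-cell stage.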

Other observations

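In 10 samples of RNA from embryonic stem cells (ESC), which are derived from the ICM, Nanog and Sox2 were detected in all 10, at 1.85 to 2.47 and 1.47 to 2.27. Gata6 was detected in 4 of the 10, at −10.95 to −6.18, Pdgfra in 6, at −6.29 to −4.38, and Sox17 in 1, at −7.43. Among the 3 samples of 200 pg of the same series, Gata6 and Sox17 were detected in 1 and Pdgfra in 2, so detection at these levels varied between repeats of 1 RNA amount.

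The 2 blastomeres of the 32-cell stage that the study left out had a control Ct of 20.9 and 22.7. Both had Gata6, at 5.07 and 5.08, and 1 of them had Sox17 at 1.41, Pdgfra at 4.34 and Sox2 at 3.47.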
